A study of Mus musculus with 168 samples.

Results

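Inhibition in the adult brain runs on GABA and glycine, and the genes described here are those that make, load, sense, clear and break down both transmitters. They were taken by name as 32 genes: 14 subunits of the ionotropic GABA-A receptor, both subunits of the metabotropic GABA-B receptor, the enzymes and the vesicular transporter that supply GABA, the plasma membrane transporters of GABA and glycine, the enzymes of GABA breakdown, 4 glycine receptor subunits, gephyrin, and the cotransporters that set neuronal chloride. Of these, 31 genes had at least 1 probe set naming that gene and no other, and the probe set with the highest mean of log2(intensity + 16) over all arrays stood for the gene. Gabbr2 is not named in the probe annotation used here and was not analysed. The 31 genes are a small part of the 18193 genes with a probe set of their own, and the list does not cover every GABA-A subunit.

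The arrays measured RNA from 7 dissected regions (cerebral cortex, hippocampus, striatum, thalamus, midbrain, pons/medulla and cerebellum) of male C57BL/6 mice aged 8 to 9 weeks. Hypoxia meant breathing 8% O2. Tissue was collected after 1 and 3 hours of hypoxia (H1 and H3), at 1, 3, 6, 12 and 24 hours of reoxygenation after the 3 hours (R1, R3, R6, R12 and R24), and from sham controls labelled 0hr, with 3 arrays for each region and time point. The shams spent 3 hours in the chamber in room air and 24 hours in the home cage, so in comparisons before R24 the hour of day and the time since handling cannot be told apart from hypoxia. The labels name no allele beyond the C57BL/6 strain in any group.

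GABA is made from glutamate by glutamate decarboxylase and glycine is taken from metabolism and from uptake, and 1 vesicular transporter loads both into synaptic vesicles. GABA-A and glycine receptors are pentameric chloride channels whose subunit mix sets their place at or outside the synapse, their affinity and their drug sensitivity, while GABA-B receptors act through G proteins on potassium and calcium channels. GABA dominates inhibition in the forebrain and cerebellum, and glycine adds to it in the brainstem and spinal cord.

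Each array value is a linear signal intensity, and differences were computed on log2(intensity + 16), which shrinks the fold changes of dim probe sets. Levels of different probe sets cannot be ranked against each other, so every level below is compared between regions or times for the same gene. Region labels were checked against 7 lists of regional marker genes, and for every list all 24 arrays of the matching region had a higher summed intensity than any array of the other regions. The correlation of an array with the others of its group over all probe sets was 0.978 to 0.989. Because the samples were bulk tissue, fewer cells of a type and less RNA per cell cannot be told apart in any value below.

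Promoter sequences are shown for genes whose regional difference was large, Gabra6 in cerebellum and Slc6a5 in pons/medulla, and for Gabra4 and Gabrb1, which lie next to each other and start on opposite strands. They come from RefSeq on GRCm38.p6, cover 250 bases before to 50 after the annotated start, and read 5′ to 3′ on the gene's own strand. Capitals mark TTGGC, the half-site of nuclear factor I, a family active in cerebellar granule neurons, and ACGTG, the core of the hypoxia response element, on either strand (GCCAA and CACGT on the other strand). For Slc6a5 and Gabrb1 the upstream one of 2 annotated promoters is shown.
Gabra6, chr11:42321023-42321322, minus strand: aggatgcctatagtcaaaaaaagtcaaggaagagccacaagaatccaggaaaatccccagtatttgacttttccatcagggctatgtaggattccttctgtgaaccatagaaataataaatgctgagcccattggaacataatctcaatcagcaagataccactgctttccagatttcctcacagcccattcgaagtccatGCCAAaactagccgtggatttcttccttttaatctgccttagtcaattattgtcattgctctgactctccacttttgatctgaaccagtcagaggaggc
Slc6a5, chr7:49910049-49910348, plus strand: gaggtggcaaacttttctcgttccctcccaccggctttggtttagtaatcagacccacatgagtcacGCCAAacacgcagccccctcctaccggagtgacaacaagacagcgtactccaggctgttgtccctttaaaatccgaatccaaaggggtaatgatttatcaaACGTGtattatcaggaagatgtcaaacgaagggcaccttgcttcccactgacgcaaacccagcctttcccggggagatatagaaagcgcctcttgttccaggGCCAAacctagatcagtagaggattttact
Gabra4, chr5:71658259-71658558, minus strand: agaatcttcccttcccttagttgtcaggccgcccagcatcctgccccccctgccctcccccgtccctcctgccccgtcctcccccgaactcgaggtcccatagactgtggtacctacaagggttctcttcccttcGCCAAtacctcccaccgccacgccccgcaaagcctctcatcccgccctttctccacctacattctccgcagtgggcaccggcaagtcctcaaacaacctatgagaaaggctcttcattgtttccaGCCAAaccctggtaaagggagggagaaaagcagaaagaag
Gabrb1, chr5:71657671-71657970, plus strand: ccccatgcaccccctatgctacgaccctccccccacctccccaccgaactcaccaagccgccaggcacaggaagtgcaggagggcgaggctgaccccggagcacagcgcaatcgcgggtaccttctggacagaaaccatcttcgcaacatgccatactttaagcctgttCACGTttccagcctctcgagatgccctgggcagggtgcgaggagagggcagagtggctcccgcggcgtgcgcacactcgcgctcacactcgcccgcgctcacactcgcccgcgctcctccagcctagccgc

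The Gabra6 window held 1 TTGGC match and no ACGTG match, the Slc6a5 window held 2 and 1, the Gabra4 window 2 and 0, and the Gabrb1 window 0 and 1. The windows of Gabra4 and Gabrb1 do not overlap. RefSeq entries were found for 28 of the 32 genes, with 38 promoters of this length, while Gabrd, Abat, Glra1 and Slc12a2 had no entry. TTGGC was in 18 of the 38 (47.4%) and in 46.7% of all 32851 promoters, and ACGTG was in 10 (26.3%) and in 19.6%. The motifs were searched as exact letters, and they share no base with each other in the 4 windows shown.

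Before hypoxia, where in the brain each gene stood was the main difference in these data. Of the 31 genes, 27 (87.1%) differed between the 7 regions at 0hr (moderated F-test in limma over 21 arrays, Benjamini-Hochberg adjusted p over all 45037 probe sets), against 39.8% of all probe sets. In 217 gene-by-region comparisons with the mean of the other 6 regions, 68 (31.3%) were higher and 62 (28.6%) were lower, and the shares over all probe sets were 8.5% and 8.28%. The median distance between the highest and the lowest regional mean was 1.54 on the log2 scale for the 31 genes, 0.53 for all probe sets and 0.61 for those brighter than the median. As 25 of the 31 genes were themselves brighter than the median, the share of all probe sets is a background of dimmer features as well.

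More of the genes were higher than lower in pons/medulla, midbrain and thalamus, more were lower in hippocampus, cerebellum and cortex, and striatum had as many of each. Pons/medulla had 15 genes higher and 6 lower than the other regions (9.42 and 8.79% of all probe sets), midbrain 14 and 3 (6.4 and 5.21%), and thalamus 13 and 6 (4.78 and 3.99%). Hippocampus had 4 higher and 16 lower (6.39 and 6.69% of all probe sets), cerebellum 7 and 12 (15.7 and 13.5%), cortex 7 and 11 (7.78 and 9.5%), and striatum 8 and 8 (9.05 and 10.2%). The map of regional levels shows these differences, with Slc6a5, Glra1, Glra3 and Slc6a11 high in the brainstem. Of these, Glra3 and Slc6a11 were as high in thalamus as in pons/medulla. Gabra5, Gabra6 and Gabrd were high in hippocampus or cerebellum.

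**Figure D1:**
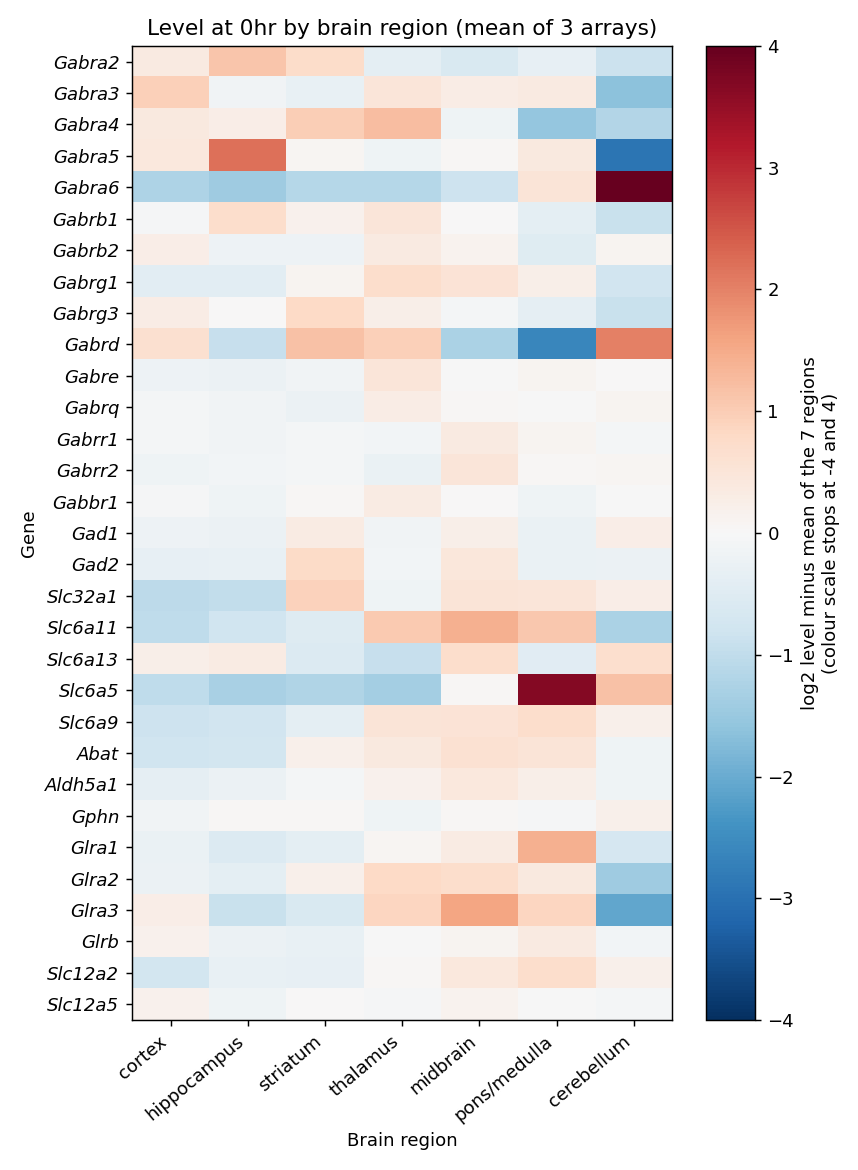
Level of the 31 genes (rows) in 7 regions (columns) at 0hr, as the log2 level minus the mean of the 7 regions, each cell the mean of 3 arrays; red is higher and blue is lower, and the colour scale ends at 4 in both directions. Gabra6 in cerebellum and Slc6a5 in pons/medulla are the darkest red cells, and Gabra5 in cerebellum and Gabrd in pons/medulla the darkest blue.

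The alpha subunits of the GABA-A receptor form part of the GABA binding site and set benzodiazepine sensitivity. Gabra6, the alpha-6 subunit of cerebellar granule cells, read 3361, 3161 and 3414 on the 3 cerebellar arrays. Pons/medulla read 79.6, 106 and 129, and the other 15 arrays read from 5.87 to 34.4. No array of another region came near the cerebellar arrays, and the cerebellar level was 6.20 ± 0.16 (SE) above the mean of the other regions on the log2 scale (adjusted p = 4.9e-15). Pons/medulla stood second, 1.34 above midbrain (adjusted p = 0.0014), and the 5 remaining regions did not differ between neighbours in the order. Gabra6 was among the genes farthest below the others in cortex (-1.45 ± 0.16, adjusted p = 2.14e-06) and in hippocampus (-1.68 ± 0.16, adjusted p = 4.23e-07), and its cerebellar level enters both of these means.

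Gabra5, the alpha-5 subunit of extrasynaptic receptors on pyramidal cells, had the opposite cerebellar pattern. It read 1041, 982 and 933 in hippocampus and 12.5, 13.0 and 13.2 in cerebellum, and the other 5 regions lay between 172 and 290. The hippocampal level was 2.56 ± 0.06 above the other regions (adjusted p = 4.27e-14) and the cerebellar level below them (-3.41 ± 0.06, adjusted p = 3.02e-16). Both gaps to the next region in the order passed the test, at 1.78 between hippocampus and cortex (adjusted p = 3.69e-10) and at 2.75 between thalamus and cerebellum (adjusted p = 1.06e-13).

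Gabra4, the alpha-4 subunit that pairs with delta in tonic, extrasynaptic receptors of thalamic relay and striatal neurons, read 1202, 1056 and 1180 in thalamus. Striatum followed with 1057, 863 and 936, and pons/medulla was lowest with 153, 162 and 144. The thalamic level was 1.45 ± 0.07 above the other regions (adjusted p = 3.29e-10), and the difference between thalamus and striatum did not pass (0.27, adjusted p = 0.0673). Pons/medulla was lower than the others (-1.80 ± 0.07, adjusted p = 2.67e-11), and so was cerebellum (-1.37 ± 0.07, adjusted p = 6.47e-11).

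The alpha-2 and alpha-3 subunits, typical of synapses in the forebrain and of reticular thalamic and monoaminergic neurons, were both lowest in cerebellum. Gabra2 averaged 727 ± 73.3 (SD, n = 3) in hippocampus and was lowest in cerebellum at 164, 156 and 210. Hippocampus, striatum and cortex did not separate from their neighbours in the order of Gabra2 levels, but cortex stood above pons/medulla (0.66, adjusted p = 0.0133). Gabra3 read 283, 319 and 322 in cortex, above thalamus (0.48, adjusted p = 0.0324), and 42.1, 38.6 and 33.8 in cerebellum, below striatum (1.33, adjusted p = 1.02e-06).

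The beta subunits carry the other side of the GABA site, and both were measured at high signal everywhere. Gabrb1 was highest in hippocampus with 1152, 1171 and 1296 and lowest in cerebellum with 360, 384 and 430 (-1.05 ± 0.10 against the others, adjusted p = 1.21e-07). Hippocampus did not separate from thalamus (0.20, adjusted p = 0.422), and thalamus was on top for a second Gabrb1 probe set. Gabrb2 varied less, with regional means 0.86 apart on the log2 scale at most. It was higher than the other regions in thalamus (0.43 ± 0.08, adjusted p = 0.000997) and cortex (0.29 ± 0.08, adjusted p = 0.0123) and lower in pons/medulla (-0.56 ± 0.08, adjusted p = 3.78e-05). Gabra4 and Gabrb1, which start on opposite strands, both had their lowest means in cerebellum and pons/medulla, with a correlation of 0.77 over the 7 regional means. For Gabrb1 the step from cortex to pons/medulla did not pass (0.33, adjusted p = 0.0759). The other pairs among these genes, Gabra2 and Gabrg1, all on chromosome 5, ran from -0.23 to 0.67. On different chromosomes, Gabra4 had 0.84 with Gabrg3 and Gabrb1 had 0.81 with Gabra5. Gabra6 and Gabrb2, which lie side by side on chromosome 11, had a correlation of 0.00 over the same 7 means. All of these values are descriptions.

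Gabrd, the delta subunit of high-affinity extrasynaptic receptors, was a second gene with a wide range. It read 1413, 1340 and 1486 in cerebellum, where granule cells pair it with alpha-6. Striatum read 841, 727 and 799, thalamus 692, 587 and 751, and cortex 536, 557 and 516. Midbrain read 119, 143 and 134 and pons/medulla only 40.5, 49.2 and 36.3, so the regions fell into a high and a low set with hippocampus (173, 166 and 174) in the low one. Against the other regions Gabrd was 2.35 ± 0.08 higher in cerebellum (adjusted p = 1.85e-13), 1.38 ± 0.08 higher in striatum (adjusted p = 5.22e-10) and lower in pons/medulla (-3.05 ± 0.08, adjusted p = 3.07e-14). A second Gabrd probe set was dim, with a mean intensity of 25.4, and did not differ between regions (adjusted p = 0.509).

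The gamma subunits link the receptor to gephyrin and the benzodiazepine site. Gabrg1, a subunit also made by glia, was highest in thalamus (465, 460 and 468) and midbrain (466, 431 and 367) and lowest in cerebellum (146, 161 and 166). Gabrg3 was highest in striatum (96.8, 100.9 and 101.9), which stood above cortex (0.51, adjusted p = 0.0311), and lowest in cerebellum (25.4, 20.4 and 14.1). The remaining GABA-A subunits were dim. Gabre (epsilon), Gabrq (theta) and the rho subunits Gabrr1 and Gabrr2, known from the retina, were the 4 genes that did not differ between regions by the F-test, with adjusted p = 0.0579, 0.611, 0.258 and 0.16. Gabrr1 had a mean below 16 in all 7 regions and Gabrq in 6, so these levels lie in the range where the offset dominates.

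Gabbr1, the GABA-B subunit that binds the ligand, had a high and flat signal. Its regional means spanned 0.52 on the log2 scale, with thalamus on top at 2774, 2772 and 3145, above striatum (0.29, adjusted p = 0.0274). Among its 4 probe sets, 1 with a mean of 1110 had a different order, with cortex highest and a correlation of -0.29 with the chosen one over the 7 regional means.

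The genes of GABA supply were measured in every region, with the highest mean in striatum. Gad1, the decarboxylase that makes most of the cell's GABA, read 2441, 2301 and 2120 in striatum, 2288, 2100 and 2213 in cerebellum and 2270, 1987 and 2191 in midbrain. The other 4 regions read from 1463 to 1710, and the step from midbrain to thalamus passed the test (0.37, adjusted p = 0.0166). Striatum did not separate from cerebellum (0.05, adjusted p = 0.717), and cerebellum was on top for the second Gad1 probe set. Gad2, the isoform at nerve endings, was 0.91 ± 0.13 higher in striatum than in the other regions (895, 657 and 1137, adjusted p = 5.72e-05) and 0.53 ± 0.13 higher in midbrain (adjusted p = 0.0119), and the step between these regions did not pass (0.32, adjusted p = 0.234). Slc32a1, the vesicular inhibitory amino acid transporter, had a wider range, from 997, 777 and 817 in striatum to 219, 218 and 186 in cortex (-1.21 ± 0.09 against the others, adjusted p = 1.57e-08) and 222, 198 and 225 in hippocampus. The summed intensity of 12 measured markers of GABAergic neurons did not follow this order, being 3586 to 4248 in striatum, 3860 to 4449 in cortex and 8216 to 9055 in cerebellum. This list shares no gene with the striatal list used to check the region labels. Whether its sum follows the number of GABAergic cells in a region was not tested.

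**Figure D2:**
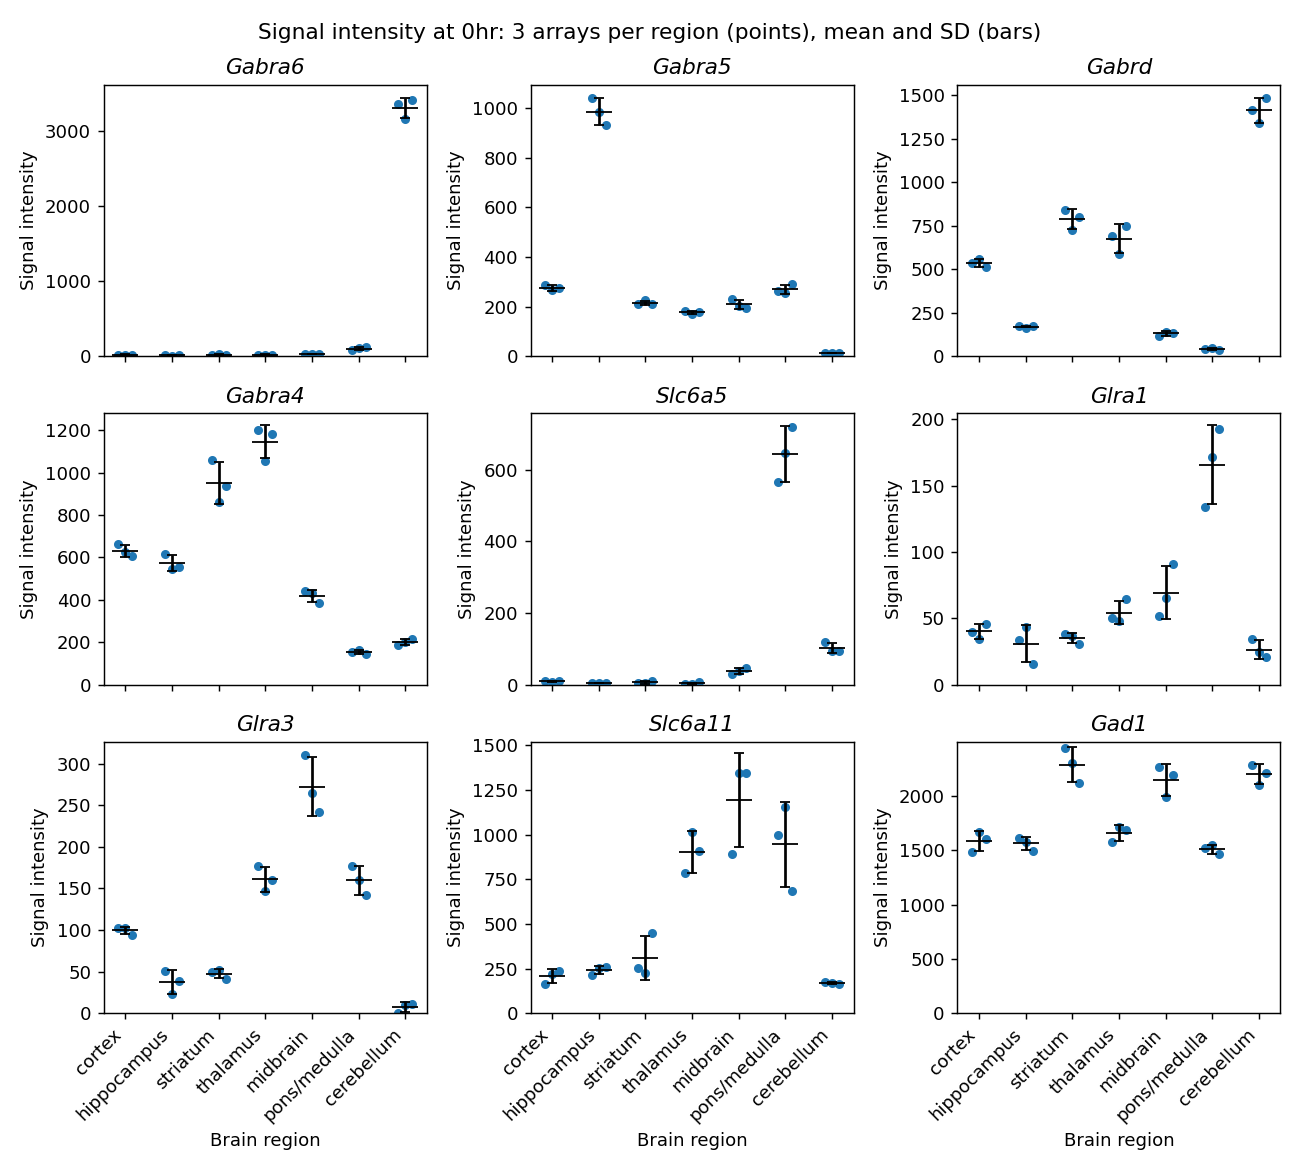
Signal intensity of 9 genes at 0hr in 7 regions, with 3 arrays per region as points and the mean with SD as bars, each panel on its own linear axis from 0. Single regions stand apart for Gabra6, Gabra5 and Slc6a5, whereas Gad1 lies between 1463 and 2441 on all 21 arrays.

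Of the genes that clear and break down GABA, Slc6a11, Abat and Aldh5a1 had their highest means in midbrain, followed by pons/medulla and thalamus, and for none of them did neighbours among these regions differ. Slc6a11 (GAT-3), the GABA transporter of astrocytes, read 891, 1346 and 1342 in midbrain, 998, 1154 and 684 in pons/medulla and 785, 1017 and 910 in thalamus. In the other 4 regions it read from 165 to 447, and the step from thalamus to striatum was 1.55 (adjusted p = 7.73e-05). The midbrain level was 1.66 ± 0.18 above the others (adjusted p = 3.67e-06), but midbrain, pons/medulla and thalamus did not differ from each other in the order. The summed intensity of 8 astrocyte markers differed less, from 8554 to 8974 in striatum to 11070 to 12210 in pons/medulla, and was 10480 to 11370 in cerebellum, where Slc6a11 was lowest. A second Slc6a11 probe set was near background with a mean of 3.61.

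Abat (GABA transaminase) read 1310, 1148 and 1109 in midbrain against 423, 436 and 457 in cortex. The step from midbrain to pons/medulla was 0.10 for Abat (adjusted p = 0.768) and 0.18 for Aldh5a1 (adjusted p = 0.506). Aldh5a1 (succinic semialdehyde dehydrogenase), the next step of the same path, had the same top and bottom regions over a smaller range, 0.77 against 1.40. The correlation over the 7 regional means was 0.91 between Abat and Aldh5a1 and 0.95 between Slc6a11 and Aldh5a1. Slc6a13 (GAT-2), a transporter of leptomeninges and blood vessels, was dim throughout, from 4.25 to 61.9 over the 21 arrays, and was lowest in thalamus (4.25, 5.79 and 5.66).

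Of the glycine genes, Slc6a5, Slc6a9, Glra1 and Glrb had their highest means in pons/medulla. Slc6a5 (GlyT2), the transporter that refills glycinergic nerve endings, read 565, 647 and 720 in pons/medulla, 118, 95.3 and 93.9 in cerebellum and 29.7, 37.5 and 47.1 in midbrain. On the 12 arrays of the other 4 regions it read from 3.01 to 12.0. Pons/medulla was 4.27 ± 0.11 above the other regions (adjusted p = 3.07e-14), thalamus below (-1.59 ± 0.11, adjusted p = 1.87e-08) and striatum below (-1.42 ± 0.11, adjusted p = 2.82e-08). The pons/medulla level enters the means that thalamus and striatum were set against. Cortex, striatum, hippocampus and thalamus all had means below 16 and did not differ between neighbours in the order (adjusted p = 0.495, 0.845 and 0.872). Each of the 3 steps down from pons/medulla to cerebellum (2.48), midbrain (1.14) and cortex (1.07) passed the test, with adjusted p = 6.2e-10, 1.04e-05 and 2.82e-05. Slc6a9 (GlyT1), the glial transporter that also sets glycine near NMDA receptors, was present in every region, from 367, 374 and 377 in cortex to 1077, 1180 and 1083 in pons/medulla. Its pons/medulla level did not separate from midbrain (0.17, adjusted p = 0.673), nor midbrain from thalamus (0.04, adjusted p = 0.958).

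Glycine receptor alpha subunits differed in where they were highest. Glra1, the adult brainstem and spinal subunit, read 134, 171 and 192 in pons/medulla and from 15.9 to 90.9 elsewhere (1.67 ± 0.16, adjusted p = 4.86e-07). A second Glra1 probe set, with a mean intensity of 83.4 against 60.3, also peaked there (387) and had a wider range over regions (4.46 against 2.09 on the log2 scale). Glra3 read 311, 265 and 241 in midbrain and 0.795, 9.91 and 11.2 in cerebellum. That was 1.83 ± 0.14 above the other regions in midbrain (adjusted p = 8.35e-08) and below them in cerebellum (-2.43 ± 0.14, adjusted p = 1.96e-10). Thalamus came next, below midbrain (0.70, adjusted p = 0.0476), and did not differ from pons/medulla (0.01, adjusted p = 0.989). Glra2 was highest in thalamus (130, 135 and 147) and midbrain (141, 111 and 136), which did not differ (0.08, adjusted p = 0.87), and was lower in cerebellum (-1.67 ± 0.08, adjusted p = 2.07e-11).

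Glrb, the beta subunit that ties glycine receptors to gephyrin, was flatter, with regional means of the chosen probe set 0.64 apart on the log2 scale at most. Only pons/medulla passed the test against the other regions (0.41 ± 0.12, adjusted p = 0.0272), and no neighbours in its order differed. A second Glrb probe set, with a mean intensity of 742, also peaked in pons/medulla (991) and had a range of 0.92. Its F-test between regions gave an adjusted p of 6.41e-06, against 0.0293 for the chosen one. Gphn (gephyrin), the scaffold of GABA-A and glycine receptors, had regional means within 0.39 of each other, higher in cerebellum (0.25 ± 0.06, adjusted p = 0.00414) and lower in thalamus (-0.21 ± 0.06, adjusted p = 0.0408).

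The chloride cotransporters decide which way current flows through these channels, KCC2 by extruding chloride from neurons and NKCC1 by loading it. Slc12a5 (KCC2) was the flattest of the 27 genes that differed between regions, from 2272 to 3207 over the 21 arrays, higher in cortex (0.20 ± 0.07, adjusted p = 0.049) and lower in hippocampus (-0.21 ± 0.07, adjusted p = 0.0438). Slc12a2 (NKCC1), made by glia and choroid plexus as well as neurons, read 1236, 1303 and 1395 in pons/medulla and 557, 445 and 431 in cortex. The pons/medulla level was 0.82 ± 0.10 above the other regions (adjusted p = 1.03e-05) and the cortical level below (-0.85 ± 0.10, adjusted p = 5.5e-06).

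For 21 of the 27 genes the top region at 0hr was also the top region in all 7 later time groups, and for 23 in 6 or more, through hypoxia and recovery, while Abat kept midbrain on top in 3. The lowest region stayed the same in all 7 for 10 of the 27 genes, and for Gabbr1 and Slc6a5 in 0. The 27 genes are those that differed between regions on the same 0hr arrays. The share of other such probe sets that kept their order is not given, so these counts cannot be placed against the array. The median over genes of the lowest correlation between the 7 regional means at 0hr and those at a later time was 0.98, and the lowest of all was 0.67, for Slc6a13. Over all arrays, region took a median 91.5% of the sum of squares of a gene, time point 0.925%, time differing by region 1.9% and the spread between arrays of a group 6.15%. Over all probe sets these medians were 27.5%, 4.06%, 15.2% and 47.1%. Gabra5 had the highest share for region, 98.9%, and Gabre the lowest, 14.8%.

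**Figure D3:**
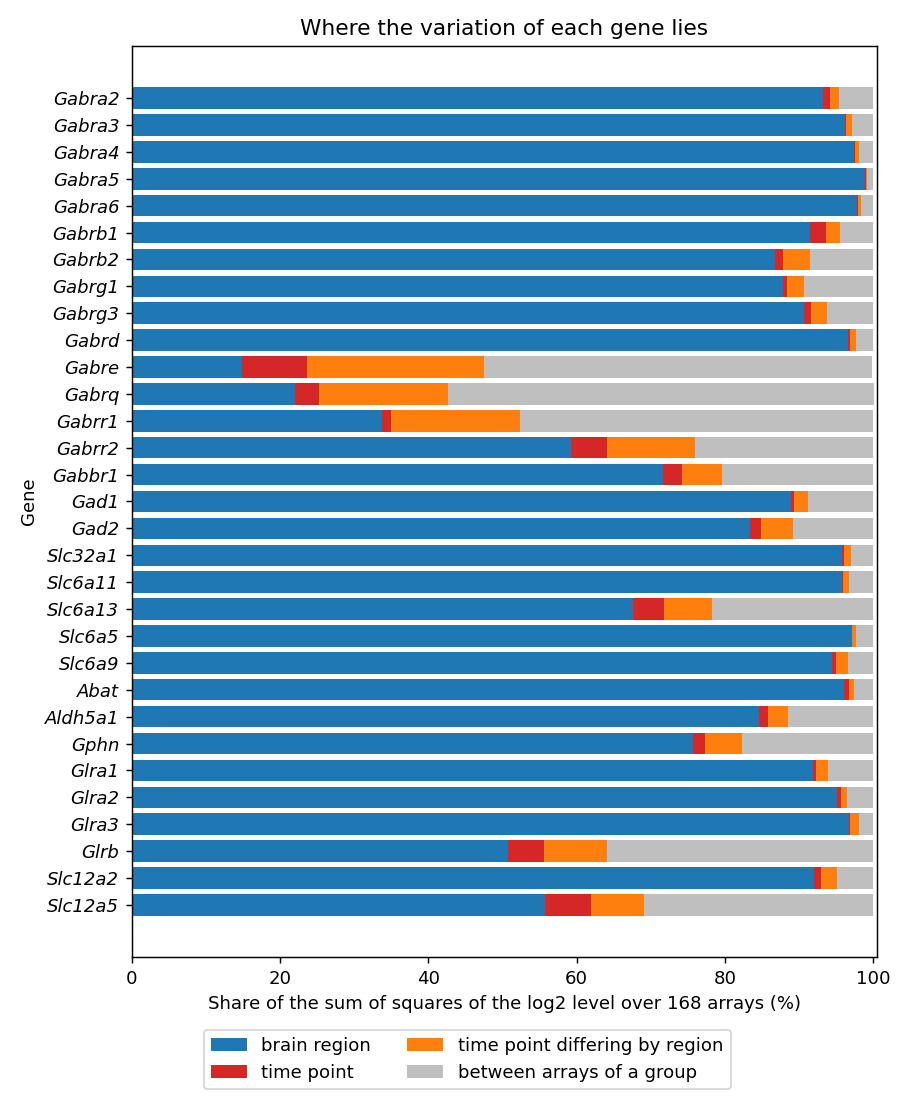
Share of the sum of squares of each gene's log2 level over all arrays (horizontal axis, percent) for the 31 genes, split into brain region, time point, time point differing by region, and arrays within a group. Region takes the longest bar for all genes but Gabre, Gabrq and Gabrr1, for which the arrays within a group do.

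Whether hypoxia changed these genes was asked in each region against its own 0hr arrays. No member of the list rose or fell at any time point in any region by the adjusted p of the time point, and none was regulated by the rule that joins an F-test over time with 1.5-fold. Each count is 0 of 217 gene-by-region comparisons per time point. Over all probe sets and regions the adjusted p was passed by 0.0301% at H1, 0.311% at H3, 0.408% at R1 and 0.00238% from R3 to R24, and the F-test rule by 0.488%. Such shares amount to about 1 call or fewer in 217 comparisons. The plain one-way and post hoc tests of the study's methods called 1 comparison at R1 after adjustment, Gabre in thalamus.

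Without adjustment for the number of tests, p values under 0.05 were less common than over all probe sets at H1, H3, R1, R6 and R24. They were more common at R3 and R12, and these differences in share were not tested. There were 7 among the 217 comparisons at H1 (5.27% of all probe sets), 11 at H3 (7.48%), 12 at R1 (9.3%), 18 at R3 (6.46%), 8 at R6 (4.88%), 15 at R12 (5.76%) and 9 at R24 (4.94%). In the list these are shares of 3.23, 5.07, 5.53, 8.29, 3.69, 6.91 and 4.15%. The median size of change was 0.07 to 0.09 on the log2 scale at the 7 times, and 0.10 to 0.12 over all probe sets.

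How large a change could have been missed is given by the intervals. The median SE of a change was 0.12 on the log2 scale. The 95% interval lay within 1.5-fold in both directions for 177 to 184 of the 217 comparisons, depending on the time, and within 2-fold for 206 to 211. These counts include genes with mean intensities below the offset of 16, such as Gabrr1 (6.35) and Gabrq (8.47). For them the offset limits the size of a fall, so their intervals cannot tell whether a decrease was missed. For Gabra2 in cortex at R1, for example, the arrays averaged 426 ± 64.8 at 0hr and 413 ± 44.0 at R1 (SD, n = 3), with a difference of -0.04 and an interval of -0.33 to 0.25.

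The F-test over the 7 time points by itself, with no fold threshold, was passed by 2 of 217 comparisons (0.922%), against 0.96% of all probe sets. In thalamus Gabre, the epsilon subunit found in monoaminergic and hypothalamic cells, read 63.2, 63.3 and 60.6 at 0hr and 44.1, 40.3 and 43.2 at R1. It read 48.3, 49.5 and 41.0 at H1, 54.4, 46.5 and 34.5 at H3, and 43.5, 46.8 and 40.5 at R3, and by R24 it read 68.9, 67.5 and 62.3. The arrays from H1 to R12 were all below those at 0hr, and the R24 arrays overlapped them. At R1 the change was -0.42 ± 0.10 (adjusted p = 0.0643), and the F-test gave an adjusted p of 0.0315. Its other regions at R1 ranged from 0.33 ± 0.23 in hippocampus to -0.43 ± 0.15 in pons/medulla (adjusted p = 0.814 and 0.452).

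The other was Gabrd in cerebellum (adjusted p = 0.0329 by the F-test). The 0hr arrays read 1413, 1340 and 1486, the R1 arrays 1580, 1520 and 1630, and the R6 arrays 1160, 1160 and 1240. The values thus lay above 0hr at R1 and below it at R6, by 0.16 ± 0.08 and -0.25 ± 0.08, with adjusted p = 0.479 and 0.88 at the single time points. Gabrd was also 0.27 ± 0.08 above 0hr in cortex at R1 (536 ± 20.8 at 0hr and 649 ± 53.0 at R1, SD, n = 3, adjusted p = 0.224).

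The largest differences belonged to dim genes. Slc6a13 in pons/medulla read 7.89, 11.1 and 22.7 at 0hr, 49.0, 43.7 and 46.1 at H1, 38.5, 47.9 and 48.4 at H3, and 64.3, 55.5 and 40.9 at R1. Later arrays read from 33.2 to 68.8, apart from 1 array at R3 with 13.8. The later groups other than R3 did not overlap with 0hr. All of these comparisons share the same 3 sham arrays, so low sham values and a lasting change cannot be told apart. On the log2 scale the difference was 1.05 ± 0.26 at H3, 1.23 ± 0.26 at R1 and 1.27 ± 0.26 at R12, and none passed (adjusted p = 0.221, 0.0864 and 0.439). The F-test over time gave an adjusted p of 0.233.

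Slc6a13 is a gene of the brain's coverings, and markers of these tissues were set beside it. The summed intensity of all 8 meningeal and fibroblast markers in pons/medulla was 1108 to 1241 at 0hr, 1287 to 1528 at H3, 1063 to 1413 at R1 and 1057 to 1462 at R12, with none of the 8 at 0. The sum of all 6 choroid plexus markers was 4947 to 6123 at 0hr, 563 to 5855 at H3, 4542 to 5883 at R1 and 720 to 6034 at R12. The part of these tissues in the Slc6a13 values was not tested.

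Gabrr2 (rho-2) in cerebellum read 26.6, 24.9 and 23.8 at 0hr, 7.89, 7.08 and 7.25 at H1, 9.31, 7.05 and 6.67 at H3, and 6.39, 4.99 and 5.61 at R1. These 3 time groups lay wholly below 0hr, while at R6 and R12 1 array of each group read 26.9 and 25.2. The change was -0.80 ± 0.23 at H3 and -0.92 ± 0.23 at R1 (adjusted p = 0.134 and 0.0616). In cortex it was -0.70 ± 0.22 at R1 (adjusted p = 0.257). Nearly all of these values are under the offset of 16 or close to it. Without the replicate 3 arrays Gabrr2 in cerebellum passed the adjusted p at R1 (-0.95, adjusted p = 0.0127) and also at H3.

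**Figure D4:**
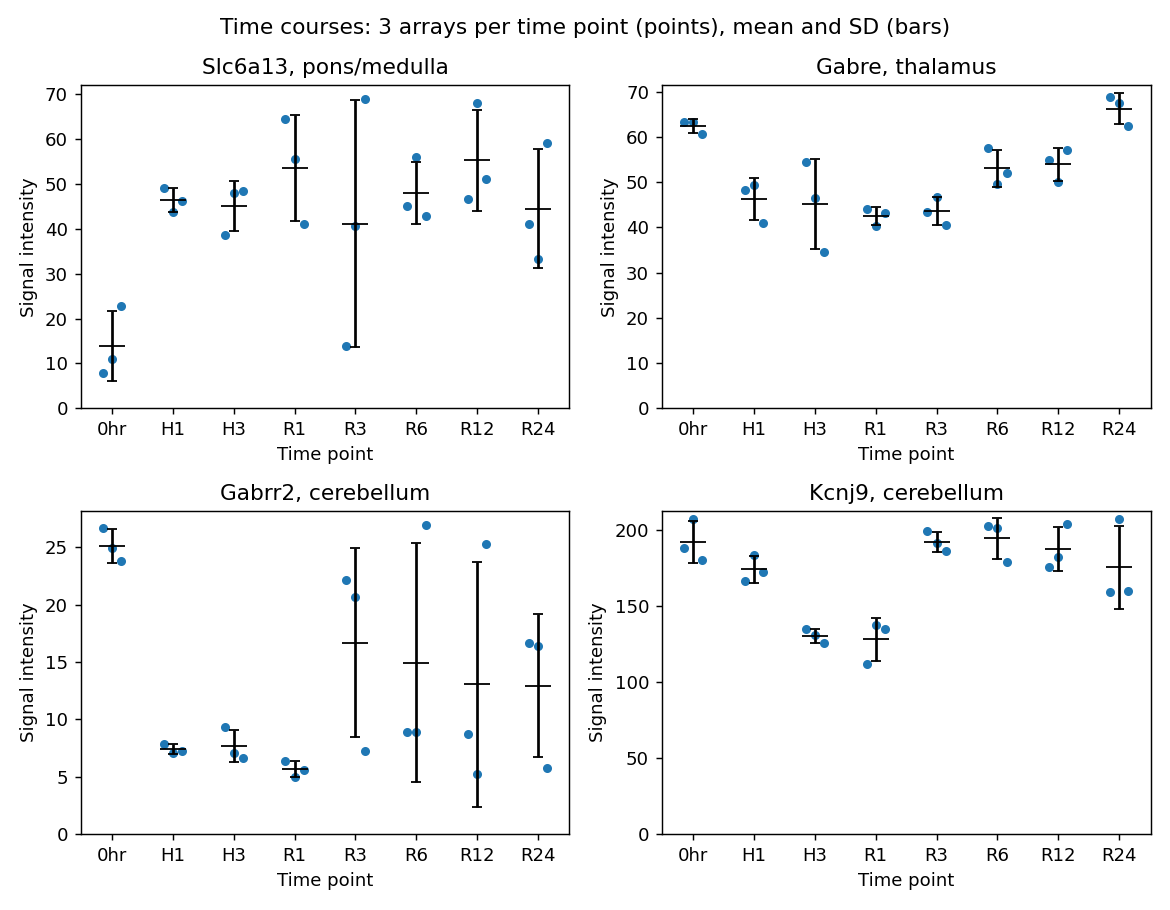
Signal intensity (vertical axis, linear from 0) by time point for Slc6a13 in pons/medulla, Gabre in thalamus, Gabrr2 in cerebellum and Kcnj9 in cerebellum, with 3 arrays per time point as points and the mean with SD as bars. Kcnj9 is the 1 gene shown that passed the adjusted p, at H3 and R1.

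Whether the change differed between regions was tested in all arrays together. None of the 31 genes passed at H3, where 0.0133% of all probe sets did, or at R1, where 0.0933% did. At an unadjusted p under 0.05 there was 1 gene at H3 (Gabrr2), and there were 3 at R1 (Gabrr2, Slc6a13 and Gabre). The share of all probe sets at the unadjusted threshold is not given, so these counts cannot be placed against the array. The smallest adjusted p from limma was that of Gabrr2 at R1 (0.411).

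Averaging the 7 regions of each time point and replicate number gave narrower intervals, since the median SE fell to 0.06. The replicate number was taken as the mouse, which the labels do not state. No gene passed the adjusted p in limma at any time (0 of 217 gene-by-time comparisons, against 1.4% of all probe sets). An unadjusted p under 0.05 was found for 17 comparisons. The share of all probe sets at that threshold is not given, so this count cannot be placed against the array. With the replicate number as a block 2 comparisons passed, Slc6a13 at H3 (0.43, adjusted p = 0.0204) and Gabrb1 at R3 (-0.22, adjusted p = 0.0364). The 95% interval lay within 1.5-fold for 30 or 31 of the 31 genes at every time and within 1.2-fold for 23 to 28.

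Gad1, Slc12a5, Gabbr1 and Gphn are examples with narrow intervals around 0 in this average, and they do not stand for all genes of their kind. At R1 the difference was 0.04 for Gad1 (95% interval -0.06 to 0.14), 0.05 for Slc12a5 (-0.03 to 0.13), 0.05 for Gabbr1 (-0.03 to 0.13) and -0.01 for Gphn (-0.07 to 0.05). The 2 averages closest to the threshold were Slc6a13 at H3 (0.43 ± 0.12, adjusted p = 0.0546) and Gabrb1 at R3 (-0.22 ± 0.05, adjusted p = 0.0603), the latter below 0hr in 6 of 7 regions. Gabrd at R1 was above 0hr in 7 of 7 regions, with an average of 0.22 ± 0.09 (adjusted p = 0.194).

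**Figure D5:**
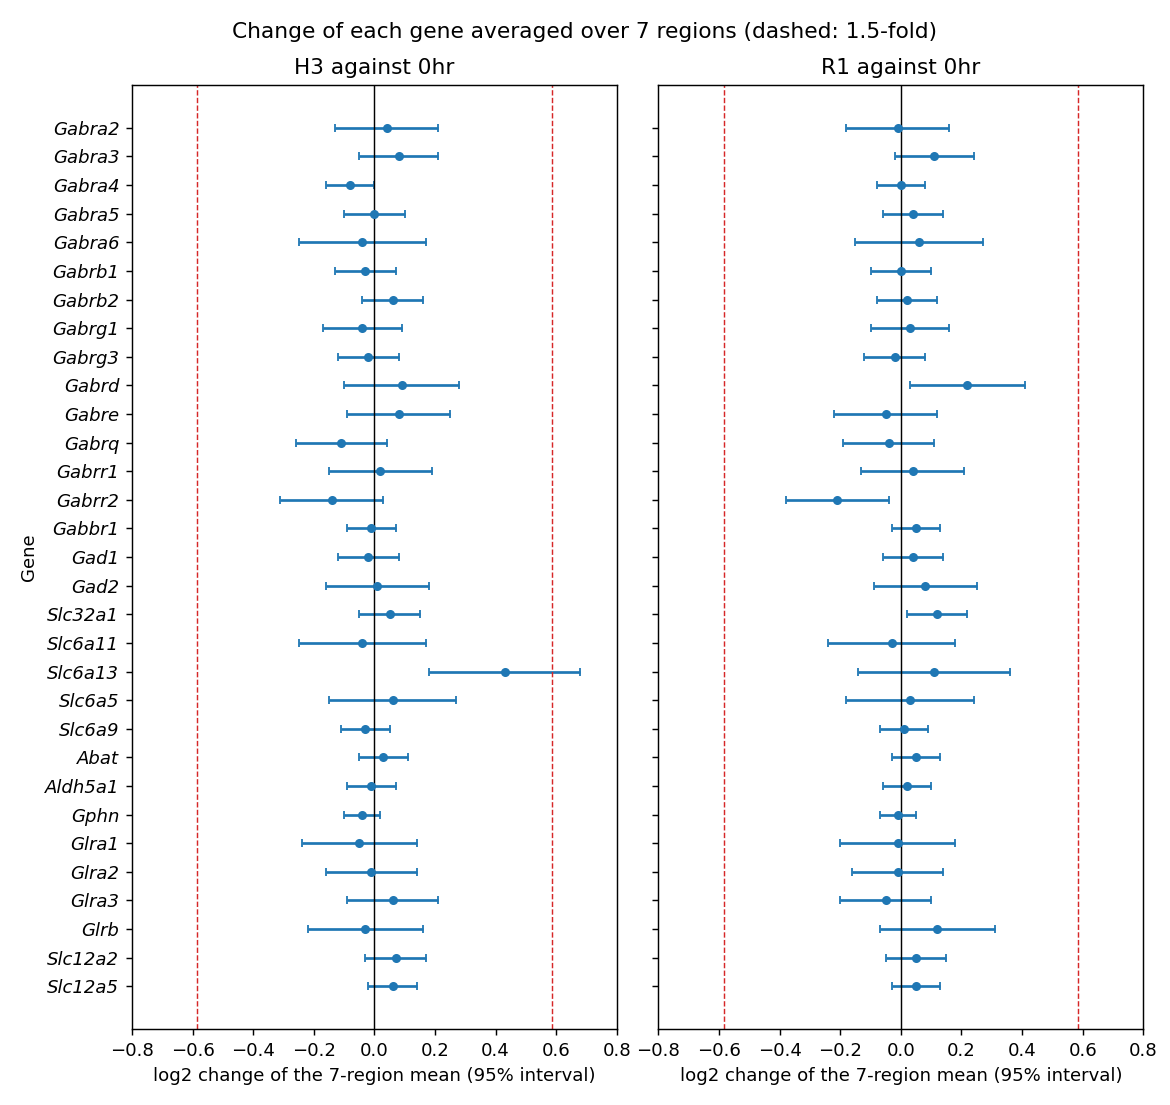
Change of the 7-region mean from 0hr for the 31 genes at H3 (left) and R1 (right), as log2 change (horizontal axis) with its 95% interval; dashed lines mark 1.5-fold. The intervals stay inside the dashed lines except that of Slc6a13 at H3, which reaches 0.68.

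Genes that work with these receptors were read in the same way, in 5 lists. Receptor trafficking and anchoring (16 measured genes), chloride regulators (13), glutamate and glutamine supply (7) and glycine and serine metabolism (7) had no gene that rose or fell in any region at any time. By region at 0hr, 16, 11, 6 and 6 of them differed, where 39.8% of all probe sets did. Of the 7 measured genes among GABA-B auxiliary proteins and effectors 5 differed by region. In this list 1 gene changed with hypoxia, always downward, with 1 call at H3 and 3 at R1. At these times 0.311 and 0.408% of all probe sets passed. Over all times the trafficking, GABA-B, chloride, glutamate and glycine lists had 784, 343, 637, 343 and 343 comparisons. These 4 calls were the only ones in the 5 lists. Whether they exceed the share over all probe sets was not tested.

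The 1 gene with calls was Kcnj9, the GIRK3 subunit of the potassium channels that GABA-B receptors open. In cerebellum it read 188, 207 and 180 at 0hr, 135, 131 and 125 at H3, and 112, 138 and 135 at R1. Every array at H3 and R1 was below every 0hr array, with changes of -0.51 ± 0.10 (adjusted p = 0.0126) and -0.53 ± 0.10 (adjusted p = 0.00968). It also fell at R1 in hippocampus, from 122, 121 and 102 to 80.9, 62.2 and 75.8 (-0.56 ± 0.11, adjusted p = 0.0343), and in cortex, from 232, 249 and 215 to 150, 171 and 156 (-0.50 ± 0.11, adjusted p = 0.0498). From R3 on the cerebellar arrays overlapped those at 0hr.

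At R1 the Kcnj9 difference was -0.47 ± 0.14 in thalamus (adjusted p = 0.158), -0.27 ± 0.13 in pons/medulla (0.656), -0.16 ± 0.16 in midbrain (0.871) and -0.06 ± 0.16 in striatum (0.962), as log2 changes with adjusted p in parentheses. Over the 3 other Kcnj9 probe sets no change passed, and the brightest of them gave -0.72 ± 0.16 in hippocampus at R1 (adjusted p = 0.0684). The change did not differ between regions by the test (adjusted p = 1 at H3 and 0.801 at R1), and the 7-region mean fell by 0.33 at H3 (adjusted p = 0.00221) and by 0.36 at R1 (adjusted p = 0.000752).

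The 4 regional calls of Kcnj9 were close to the threshold. All were lost when any 1 replicate number was left out of a region's fit, with changes from -0.66 to -0.44. Leaving out any single 0hr or R1 array ended the call in cortex (adjusted p = 0.0583 to 0.199). In hippocampus the call ended without replicate 1 or 2 of 0hr or replicate 2 or 3 of R1 (0.105 to 0.175). In cerebellum it ended at H3 without replicate 2 of 0hr or replicate 2 or 3 of H3 (0.0532 to 0.0798), and at R1 without replicate 2 of 0hr or replicate 1 of R1 (0.0572 to 0.0644). In cortex it also ended with a pseudocount of 1, quantile normalization or median centring (adjusted p = 0.0732, 0.0766 and 0.286).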

How the data were processed

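Total RNA from 7 regions of 24 mice was hybridised to Affymetrix mouse arrays (1 colour), 3 for each of 56 groups. The authors deposited 1 linear signal intensity per probe set and array. The 2% trimmed mean is 125 on every array, so the values were scaled per array before deposit. The methods name GCRMA, quantile normalization and division by the sham mean; no trace of these steps is seen in the values. Scans were read with GCOS 1.3 according to the submitters' processing notes, and how they became these values is not given in the sources used here, nor is a genome build. Values run from 0.0117 to 8601, and 23.3 to 30.2% of an array's values are below 16.

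The 64 control probe sets were left out, leaving 45037, and log2(value + 16) was fitted with limma 3.58.1 (lmFit, eBayes; data.table for reading) in R 4.3.3. Of the probe sets, 34945 name 1 gene symbol, 932 several and 9160 none, and only the first kind stood for a gene. Each region was fitted alone (24 arrays, 8 groups, no covariate). A gene rose or fell where its Benjamini-Hochberg adjusted p at a time point, over all probe sets, was under 0.05. It was regulated where the F-test over time had an adjusted p under 0.05, with an unadjusted p under 0.05 and at least 1.5-fold at the time point. Levels at 0hr used 21 arrays, changes by region all arrays, and the average over regions 24 means of 7 arrays. Scripts were tested on simulated data.

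Genes, lists and tests were chosen with earlier results of these data known. Named with every array value are genes past a change test and, per region, the 2 genes farthest from the other regions at 0hr, and others by range, or as examples chosen after their values were seen. Alternatives covered the pseudocount (1 or 32), normalization, brightness, the second brightest probe set, eBayes settings, the replicate number as a block, the fold threshold, the methods' tests, 1 fit over all arrays and arrays left out. Precision is limited by 3 arrays per group, and the labels do not say that arrays of a group are separate mice, which the methods do.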

Additional observations from a re-analysis of the deposited data

How the results depend on the processing

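Of 357 recomputed counts, 329 stayed within 1.5 times of the main count. Many of these are counts of changes with a main value of 0, for which staying means 0 again. The 27 genes that differ between regions ranged from 23 to 28 without 1 replicate number. With the second brightest probe set, which 23 of the genes have, 33 comparisons were higher and 40 lower at 0hr, against 56 and 52 for the same 23 genes. These probe sets were often dim. With them Slc6a11 in midbrain turned to -0.08, and Slc32a1 in cortex (-0.34), Gabrd in striatum (0.13) and pons/medulla (-0.13) and Slc6a5 in thalamus (-0.15) no longer passed. Without 1 replicate number 47 to 54 comparisons of all 31 genes were higher and 43 to 48 lower, against 68 and 62 with all arrays.

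The main counts of changes were 0. The 7-region mean gave 1 call at R1 with a pseudocount of 1 (Gabrr2), 1 at R3 with a pseudocount of 32, with bright probe sets only and with trend and robust eBayes (Gabrb1), and 1 at H3 with trend and robust eBayes (Slc6a13). The adjusted p at R1 gave 1 call with the methods' post hoc test (Gabre in thalamus, adjusted p = 0.0492) and 1 with a single fit over all arrays (Gabrr2 in cerebellum, 0.0265). Leaving out a replicate number gave 0 to 1 calls at H1, H3, R1, R6 and R12 by the F-test rule and 0 to 1 at H3 and R1 by the adjusted p, in each case Gabrr2 in cerebellum without replicate 3, and 0 otherwise. At 1.2-fold the F-test rule counted 1 comparison at each of H1, H3, R1 and R3 (Gabre in thalamus). With no fold threshold it counted 1 at H1, H3, R1 and R6 and 2 at R3, where Gabrd in cerebellum was added; that at R6 was Gabrd. The cause of these shifts was not tested.

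The replicate numbers were not shown to pair the samples: the median correlation of deviations was 0.074 for the same number in other regions of a time point (-0.039 for other numbers) and 0.141 for the same number at other times of a region (-0.068 for other numbers), with lowest values of -0.23 and -0.22 for the same number. With the replicate number as a block, 1 comparison passed at R1 (Gabre in thalamus, -0.42, adjusted p = 0.0374), and the 7-region mean had 1 call at H3 (Slc6a13, 0.43, 0.0204) and 1 at R3 (Gabrb1, -0.22, 0.0364). No other count changed by more than 1.5 times under the block. With 3 arrays per group the number of arrays limits the precision, and genes near an intensity of 16 have compressed fold changes.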
